A study of Gallus gallus with 88 samples.

Results

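The genes described here encode pyruvate dehydrogenase and citrate cycle enzymes, measured in chicken breast muscle. The list named 9 genes (PDHA1, PDHB, DLD, CS, IDH3A, OGDH, SUCLA2, FH and PCCB) by symbol, each to be read from its probe set with the highest mean. A probe set was matched for 8 of the 9, out of 11528 genes with a symbol and 20706 probe sets on the array. Each of the 8 had 1 probe set (for PDHB, 15421966). The array annotation holds no PDHA1; that gene was read from the probe set annotated as PDHA2, of which RefSeq gives PDHA1 as a synonym. CS, citrate synthase, had no matched probe set and was not analysed here.

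Pyruvate made by glycolysis enters the mitochondrion and is turned into acetyl-CoA by the pyruvate dehydrogenase complex. PDHA1 and PDHB are the alpha and beta subunits of its E1 component, which removes carbon dioxide from pyruvate, and DLD is its E3 component, shared with the 2-oxoglutarate and branched-chain ketoacid dehydrogenases. In the citrate cycle IDH3A is the catalytic subunit of NAD-dependent isocitrate dehydrogenase, OGDH the E1 component of 2-oxoglutarate dehydrogenase, SUCLA2 the beta subunit of the ATP-forming succinyl-CoA ligase, and FH the fumarase that makes malate. PCCB, the beta subunit of propionyl-CoA carboxylase, starts the side route by which propionyl-CoA from odd-chain fatty acids and some amino acids reaches the cycle as succinyl-CoA. Breast muscle of the chicken is a largely fast, glycolytic muscle, in which the pyruvate dehydrogenase step sets how much pyruvate is oxidised rather than released as lactate.

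The study measured total RNA of M. pectoralis major on 88 arrays, with 1 broiler per array and 8 per group except where stated, to ask how a short change of egg temperature acts on muscle before and after hatch. All eggs were held at 37.8 °C outside the treatment interval. On embryonic day 10 and on embryonic day 13, muscle was taken straight after an interval (days 7 to 10 or days 10 to 13) at 38.8, 37.8 or 36.8 °C. Birds of post-hatch day 35, fed a standard diet, came from both intervals at 38.8 °C, from both at 36.8 °C, and from a control group of 8, of which 2 carried the label of the earlier interval and 6 that of the later one. No genotype, sex or allele is used here, and each sample is whole breast tissue, which can hold cells other than muscle.

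Values are log2 signals as the authors deposited them. The 48 embryo arrays had array medians of 7.56 to 8.13 and the 40 arrays of day 35 medians of 6.32 to 6.76, so levels were tested only within the embryo arrays or within day 35. Arrays of an age resembled each other, with a median Pearson r to their fellow arrays that was lowest at 0.904 (day 10), 0.947 (day 13) and 0.901 (day 35). The sample list runs in blocks: at each age 4 controls stand with the 38.8 °C arrays (first block) and 4 with the 36.8 °C arrays (second block). The labels do not say whether these blocks were separate runs, so the block is treated only as a possible batch. Between the controls of the first and second block, 1684 probe sets differed on day 10, 183 on day 13 and 34 on day 35 (limma, adjusted p under 0.05). Markers of skeletal muscle (9 measured of 14 listed) had mean log2 levels of 10.15 to 11.72 over the arrays, and no marker of any list stood at 0 on every array. Lists of other tissues also had signal in the embryo. In the day 10 controls mean levels were 10.28 to 10.80 for skeletal muscle, 8.71 to 10.17 for cartilage and 11.32 to 11.67 for connective tissue. The epidermis list ran from 5.94 to 8.67 in those controls and from 6.00 to 9.67 in the day 13 controls. The share of muscle in a sample was not measured.

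Within their own arrays, all 8 members were among the brighter probe sets at 37.8 °C, apart from SUCLA2 in the embryo. Percentile ranks, the share of the 20706 probe sets with a lower signal, allow the ages to be set side by side without comparing levels, although a rank also depends on a probe set's affinity. SUCLA2 stood at a median rank of 59.2 on day 10 (45.7 to 63.9 over 8 arrays), 69.1 on day 13 (67.5 to 71.6) and 89.99 on day 35 (86.96 to 91.50). OGDH moved from 91.5 on day 13 (91.02 to 92.13) to 97.5 on day 35 (96.7 to 98.4), with no overlap. DLD moved from 89.6 (89.1 to 90.8) to 95.2 (93.7 to 96.0), and IDH3A from 95.1 (94.6 to 95.4) to 96.7 (95.5 to 97.6). The ranks of PDHA1, PDHB, FH and PCCB overlapped between day 13 and day 35: PDHA1 stood near 80.1 and 80.5, and PCCB near 91.6 and 91.8. Thus 4 of 8 members ranked higher on day 35 without overlap and 0 ranked lower, where 16.7% of all probe sets ranked higher in that way and 17.4% lower. Ranked among 1 probe set per symbol, 3 of 8 remained apart and IDH3A overlapped, where 20.4% of genes ranked higher without overlap and 22.3% lower.

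**Figure D1:**
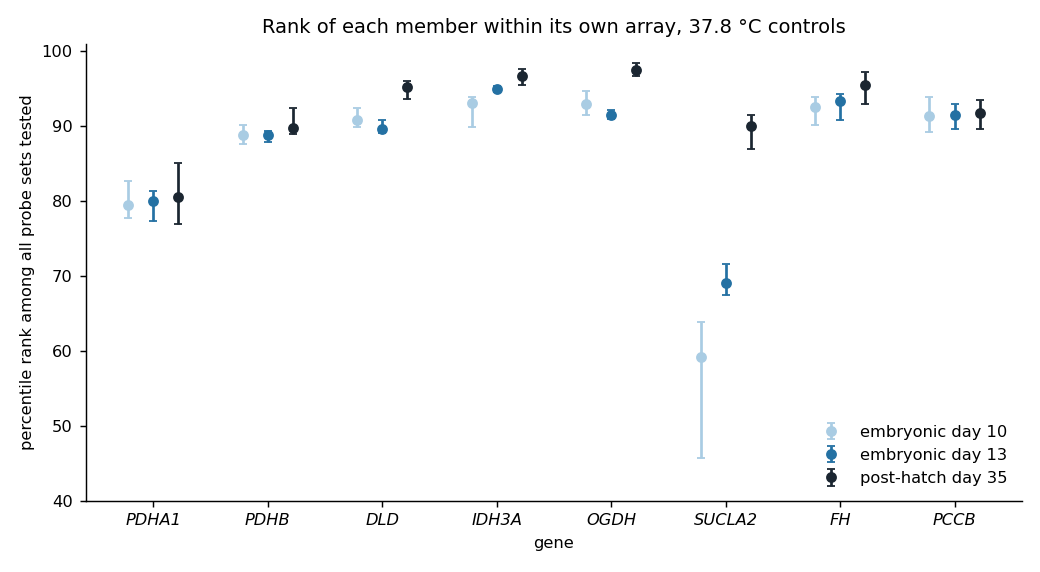
Percentile rank of each gene within its own array in the 37.8 °C controls (y axis, percent of all probe sets tested; x axis, gene). Points are medians of 8 arrays and bars run from the lowest to the highest array; SUCLA2 climbs from 59.2 on embryonic day 10 to 89.99 on day 35, while PDHA1 stays between 79.5 and 80.5.

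In embryos held at 37.8 °C, the pyruvate dehydrogenase subunits did not pass the test between day 10 and day 13, while 3 enzymes further along the cycle did, in opposite directions. IDH3A rose 1.28-fold and SUCLA2 1.497-fold, and OGDH fell to 0.846 of its day 10 level. In limma fitted over all 20706 probe sets with Benjamini-Hochberg adjustment, 2 of 8 members rose and 1 fell, beside 9.65% of all probe sets that rose and 17.2% that fell, or 26.8% in either direction. At an unadjusted p under 0.05 there were 4 of 8 members and 36.2% of all probe sets. The median log2 difference of the 8 members was -0.0010, against -0.02 over all probe sets. These are amounts in whole tissue, in which fewer cells of a type and less RNA per cell cannot be told apart.

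The E1 and E3 subunits of pyruvate dehydrogenase did not pass. PDHA1 ran from 9.34 to 9.82 with a median of 9.62 on day 10, and from 9.43 to 9.74 with a median of 9.59 on day 13. PDHB ran from 10.13 to 10.48 (median 10.36) and then from 10.13 to 10.43 (median 10.28). The groups of both genes overlapped almost fully, with log2 differences of -0.02 ± 0.08 (SE) for PDHA1 (95% interval -0.17 to 0.14) and -0.05 ± 0.07 for PDHB (-0.19 to 0.10). DLD lay between 10.35 and 10.78 (median 10.54) on day 10 and between 10.20 and 10.58 (median 10.39) on day 13. Its difference of -0.16 ± 0.07 had an adjusted p of 0.10 in limma, with 7 of 8 day 13 arrays below the day 10 median.

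IDH3A, which turns isocitrate into 2-oxoglutarate, lay between 10.20 and 10.95 (median 10.86) on day 10 and between 11.03 and 11.23 (median 11.10) on day 13. Every day 13 array was above every day 10 array, as it was for 3.30% of all probe sets. The log2 difference was 0.36 ± 0.08 (SE, n = 8 and 8; limma adjusted p = 0.00036). SUCLA2, which makes ATP from succinyl-CoA, lay between 7.34 and 8.80 (median 8.42) on day 10 and between 8.82 and 9.14 (median 8.88) on day 13, again without overlap. Its difference was 0.58 ± 0.16 (limma adjusted p = 0.0042). OGDH, which acts between these enzymes, went the other way, from 10.60 to 11.07 (median 10.82) on day 10 to 10.49 to 10.72 (median 10.59) on day 13. All 8 day 13 arrays were below the day 10 median and 4 were below every day 10 array, with a difference of -0.24 ± 0.07 (limma adjusted p = 0.0088). No call of these 3 was lost when any 1 of the 16 arrays was left out.

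The day 10 controls of the 2 listing blocks were set side by side for SUCLA2 and OGDH. Of all 20706 probe sets, 1684 differed between these controls (limma, adjusted p under 0.05). The SUCLA2 day 10 controls of the first block lay at 8.58, 8.62, 8.79 and 8.80, and those of the second block at 7.34, 8.15, 8.24 and 8.25. For OGDH the same controls lay at 10.60, 10.69, 10.76 and 10.78 in the first block and at 10.86, 10.87, 11.01 and 11.07 in the second. The difference between these controls did not pass for either gene (limma adjusted p = 0.086 for SUCLA2 and 0.19 for OGDH). Within the first block alone the age difference was 0.31 for IDH3A (limma adjusted p = 0.043), 0.31 for SUCLA2 (0.38) and -0.07 for OGDH (0.76). Within the second it was 0.41 for IDH3A (0.0030), 0.85 for SUCLA2 (0.0013) and -0.41 for OGDH (0.0010). IDH3A thus passed in both blocks, and SUCLA2 and OGDH in the second. Of all 20706 probe sets, 2791 passed in the first block alone and 5382 in the second alone. The difference between the blocks was not tested. With the block as a term and all 16 arrays, the calls of IDH3A, SUCLA2 and OGDH all held. Of all 20706 probe sets, 6087 passed in that fit, against 5552 without the term. The fit averages the 2 blocks with equal weight, so the age differences stay the same and only their spread changes. It therefore cannot show whether an age difference is present in each block. The part of the block in these differences was not tested further.

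FH and PCCB did not pass. FH ran from 10.37 to 10.96 (median 10.73) on day 10 and from 10.55 to 10.98 (median 10.89) on day 13, a difference of 0.12 ± 0.09. PCCB ran from 10.37 to 10.75 (median 10.61) and from 10.44 to 10.77 (median 10.57), a difference of 0.01 ± 0.08, with a 95% interval of -0.14 to 0.17. Over the same days 10 of 11 cartilage markers fell, with a median log2 difference of -2.29 and mean levels of 8.71 to 10.17 on day 10 against 6.49 to 7.26 on day 13. Of 9 skeletal muscle markers 8 rose (median 0.46), as did 4 of 5 adipocyte markers (median 1.21). All 6 erythroid markers were below 0, with 3 that fell (median -0.33), as were all 4 nerve and Schwann cell markers, with 2 that fell (median -0.31). The part of these markers in the age differences of the members was not tested.

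**Figure D2:**
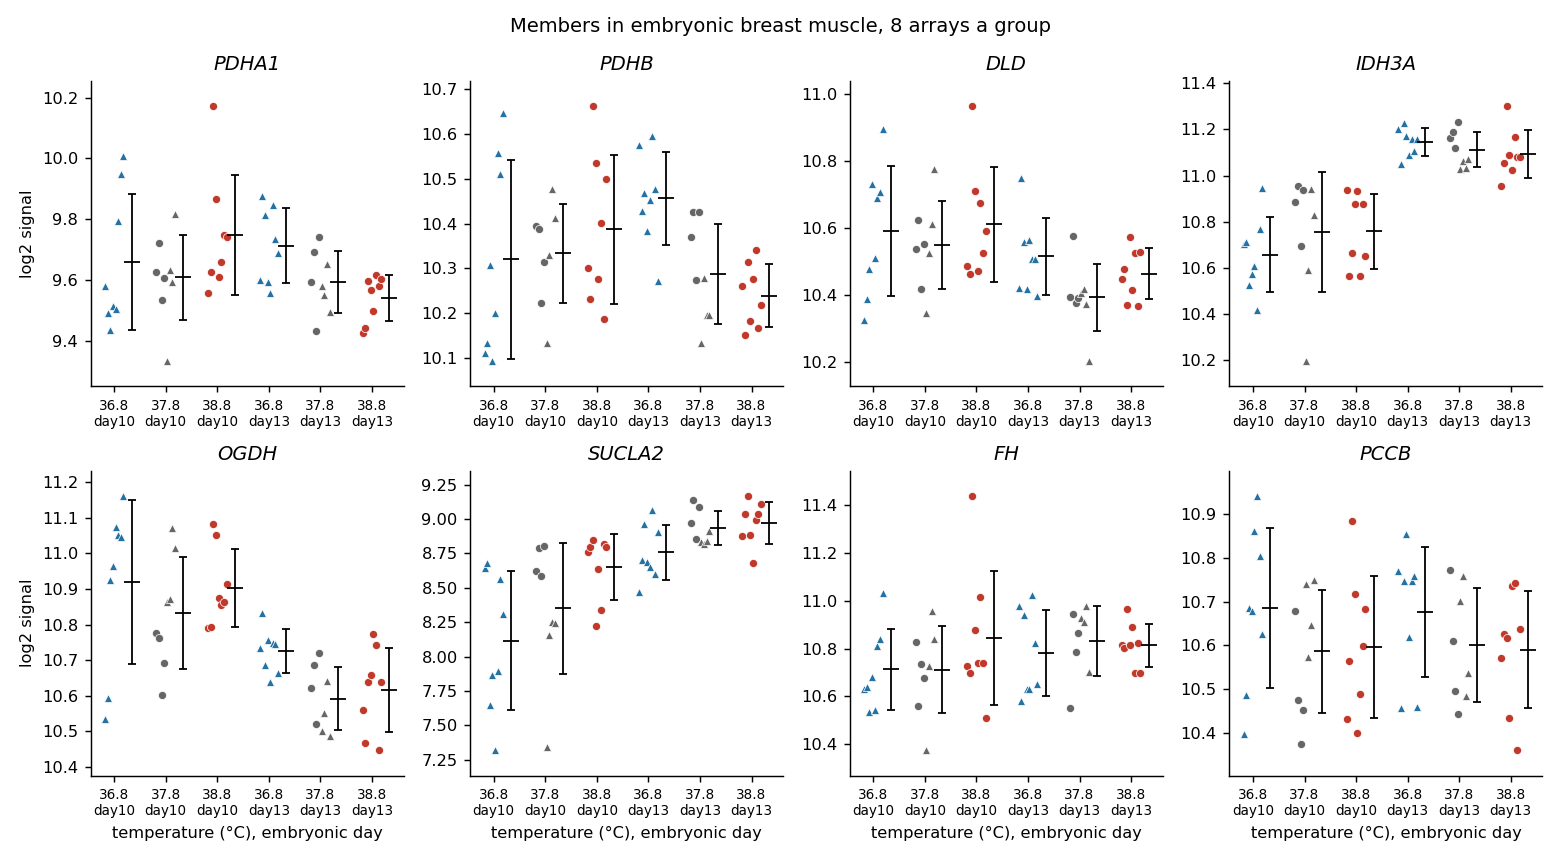
Log2 signal (y axis) of each gene in the 6 embryo groups (x axis, incubation temperature in °C and embryonic day); points are arrays, circles the first listing block and triangles the second, with the group mean and SD in black beside them. IDH3A lies higher on day 13 at every temperature, and the day 10 SUCLA2 values of the second block spread down to 7.32.

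The step from day 10 to day 13 was also measured at the other temperatures. There the day 10 embryos were treated on days 7 to 10 and the day 13 embryos on days 10 to 13. Age and treatment interval thus cannot be told apart at 38.8 and 36.8 °C. At 38.8 °C IDH3A rose by 0.33 ± 0.08 (limma adjusted p = 0.0011) and OGDH fell by 0.29 (adjusted p = 0.0021), so 1 of 8 members rose and 1 fell, beside 8.4% and 14.4% of all probe sets, or 22.8% in either direction (unadjusted, 5 of 8 members and 32.7%). OGDH ran from 10.79 to 11.08 (median 10.87) on day 10 and from 10.45 to 10.77 (median 10.64) on day 13 at that temperature, with no overlap. PDHA1 differed by -0.21 ± 0.08 (adjusted p = 0.0502), with all 8 day 13 arrays below the day 10 median; leaving out any of 4 day 10 arrays made it pass, and over all 16 arrays left out in turn its adjusted p ran from 0.029 to 0.18, the latter without animal 9. SUCLA2 differed there by 0.32 ± 0.16 (adjusted p = 0.16). At 36.8 °C IDH3A rose by 0.49 ± 0.08 (adjusted p = 3e-06), SUCLA2 rose by 0.64 ± 0.16 (adjusted p = 0.0017) and OGDH fell by 0.19 (adjusted p = 0.040), beside 14.4% of all probe sets that rose and 12.1% that fell, or 26.4% in either direction (unadjusted, 3 of 8 members and 36.2%). The call of OGDH at 36.8 °C lay close to the threshold. It was lost on leaving out any of 10 of the 16 arrays, with adjusted p of up to 0.10. Over all 16 left out in turn, the OGDH difference ran from -0.25 to -0.16. IDH3A rose and OGDH fell at all 3 temperatures, and the IDH3A values of the ages did not overlap at any of them. Over all probe sets, 3.59% at 38.8 °C and 4.09% at 36.8 °C were higher without overlap, and 3.75% at 38.8 °C were lower. PDHB at 36.8 °C differed by 0.14 ± 0.07, which did not pass.

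Whether the age step differed between temperatures was tested directly. At 38.8 and 36.8 °C that step also holds the change of treatment interval. The age difference at 38.8 °C minus that at 37.8 °C passed for 0 of 8 members and for 0% of all probe sets in limma, and at an unadjusted p under 0.05 for 0 members and 3.88% of probe sets. The widest values were -0.26 ± 0.22 for SUCLA2 and -0.19 ± 0.11 for PDHA1. At 36.8 against 37.8 °C it passed for 0 of 8 and 0% of all, and at an unadjusted p under 0.05 for 0 members and 2.95% of probe sets, with the widest value at 0.18 ± 0.10 for PDHB. The 95% interval for SUCLA2 at 38.8 °C ran from -0.72 to 0.19, so changes within those bounds are not excluded.

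Around the pyruvate dehydrogenase step, 2 kinases rose with age at 37.8 °C. Over all probe sets 9.65% rose and 17.2% fell, or 26.8% in either direction. Of 10 measured partners and regulators of the complex, 2 rose and 0 fell, with a median log2 difference of 0.09. Both were pyruvate dehydrogenase kinases, which phosphorylate E1 and switch the complex off. PDK4 rose by 1.98 ± 0.43 (limma adjusted p = 0.00037), and PDK1 by 0.35 ± 0.09 (adjusted p = 0.0023). PDK3 differed by 0.03 ± 0.06, and DLAT, the E2 core of the complex, by 0.10 ± 0.08. PDK4 also rose at 38.8 °C, by 1.23 ± 0.43 (adjusted p = 0.034), and at 36.8 °C, by 1.74 ± 0.43 (adjusted p = 0.0019). PDK1 rose at 36.8 °C, by 0.40 ± 0.09 (adjusted p = 0.00052), and differed by 0.07 ± 0.09 at 38.8 °C. Unlike those of the members, the age differences of the related genes were not followed within the listing blocks or with arrays left out.

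Of 10 other citrate cycle enzymes, 0 rose and 0 fell at 37.8 °C (median 0.02), and at an unadjusted p under 0.05 there was 1, MDH2, the mitochondrial malate dehydrogenase, at -0.14 ± 0.07. The partners of the members that changed did not pass at 37.8 °C: SUCLG1, the alpha subunit that pairs with SUCLA2, differed by -0.03 ± 0.06, SUCLG2, the GTP-forming beta subunit, by -0.17 ± 0.14, and DLST, the E2 partner of OGDH, by 0.05 ± 0.06. At 38.8 °C MDH2 fell by 0.24 (adjusted p = 0.0050) and SUCLG2 fell by 0.45 (adjusted p = 0.017), so 0 rose and 2 fell. PCCA, the partner of PCCB, differed by 0.06 ± 0.07 at 37.8 °C. Of 11 genes of side entries and exits, 0 rose and 4 fell at 38.8 °C (median -0.20), beside 8.4% and 14.4% of all probe sets. At 36.8 °C 3 rose and 1 fell, beside 14.4% and 12.1%. At 37.8 °C 3 rose and 2 fell, beside 9.65% and 17.2%, and these were as follows. MCEE, the epimerase that follows propionyl-CoA carboxylase, rose by 0.46 ± 0.15 (adjusted p = 0.014). DBT and BCKDHB, of the branched-chain ketoacid dehydrogenase that uses DLD, rose by 0.54 ± 0.15 (adjusted p = 0.0058) and 0.35 ± 0.11 (adjusted p = 0.012). SLC25A1, the citrate carrier, fell by 0.51 (adjusted p = 0.027), and GOT2, the mitochondrial aspartate aminotransferase, fell by 0.24 (adjusted p = 0.024).

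On embryonic day 10, straight after 3 days at a changed temperature, no member passed in any of the 3 temperature comparisons. For 38.8 against 37.8 °C, 0 of 8 members and 0% of all probe sets passed in limma, and at an unadjusted p under 0.05 there were 0 members and 6.29% of probe sets. All 8 differences were above 0, with a median of 0.07, as were 11944 of the 20706 probe sets, whose median was 0.03. After quantile normalization PDHB, IDH3A and PCCB turned to -0.00039, -0.04 and -0.03, and against the 4 controls of their own listing block IDH3A and SUCLA2 stood at -0.11 and -0.05. In the 38.8 °C group animal 9 stood apart from the other arrays (median r 0.904) and was the highest array for 7 of the 8 members, IDH3A being the other. Without it the differences were 0.01 for PDHB and DLD, 0.05 for FH and -0.03 for PCCB. All 7 epidermis markers were above 0 in this comparison (median 1.04, 0 passing) and 10 of 11 cartilage markers below 0 (median -0.47, 0 passing). The mean level of the epidermis list ran from 6.30 to 9.65 at 38.8 °C and from 5.94 to 8.67 in the controls, and that of the cartilage list from 6.47 to 10.38 and from 8.71 to 10.17. Their part in the differences was not tested. With all arrays the largest was SUCLA2 at 0.30 ± 0.21, followed by PDHA1 at 0.14 ± 0.10. For 36.8 against 37.8 °C, 0 of 8 and 0% passed, at an unadjusted p under 0.05 there were 0 members and 2.36% of probe sets, and SUCLA2 differed by -0.23 ± 0.21.

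SUCLA2 was the member that spread most on day 10. It lay between 8.22 and 8.85 (median 8.78) at 38.8 °C, between 7.34 and 8.80 (median 8.42) at 37.8 °C and between 7.32 and 8.68 (median 8.10) at 36.8 °C. The medians stepped down with temperature, and all 8 arrays of 38.8 °C were above the median of 36.8 °C. The 37.8 °C controls of the first listing block exceeded those of the second by 0.70 ± 0.26 (limma adjusted p = 0.086). The median and SD of the 37.8 °C group therefore also hold that gap. The difference between 38.8 and 36.8 °C was 0.54 ± 0.21 with an unadjusted p of 0.015 and an adjusted p of 0.12, so 0 of 8 members passed, beside 0.0338% of all probe sets (unadjusted, 1 of 8 and 24.4%). Quantile normalization moved the median of all probe sets in this comparison from 0.05 to -0.07. With each temperature set against the controls of its own listing block, that difference was -0.16 ± 0.31 and thus changed sign. SDs of SUCLA2 on day 10 were 0.24, 0.48 and 0.51 at 38.8, 37.8 and 36.8 °C, against 0.15, 0.12 and 0.20 on day 13. PCCB, the side-entry enzyme, differed from the controls by 0.10 ± 0.09 at 36.8 °C.

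On embryonic day 13 PDHB, the beta subunit of E1, was lower after 38.8 °C than after 36.8 °C. PDHB lay between 10.15 and 10.34 (median 10.24) at 38.8 °C, between 10.13 and 10.43 (median 10.28) at 37.8 °C and between 10.27 and 10.60 (median 10.46) at 36.8 °C. All 8 arrays of 38.8 °C were below the median of 36.8 °C, and 5 were below every 36.8 °C array. The log2 difference was -0.22 ± 0.05, a ratio of 0.860 (limma adjusted p = 0.019). With each temperature set against the 4 controls of its own listing block it was -0.39 ± 0.08 (adjusted p = 0.049). In that fit 28 of 20706 probe sets passed. The PDHB controls of the first block exceeded those of the second by 0.17 ± 0.07 (limma adjusted p = 0.11). That gap between controls is part of the value of -0.39. PDHB was the 1 of 8 members that fell in this comparison and 0 rose, beside 2.34% of all probe sets that were lower and 3.54% that were higher, or 5.88% in either direction (unadjusted, 4 of 8 members and 21.2%). Quantile normalization moved the calls over all probe sets from 733 higher and 484 lower to 1118 higher and 1138 lower. The median difference of the members was -0.07, against 0.0043 over all probe sets.

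PDHA1, the other E1 subunit, lay between 9.43 and 9.62 (median 9.57) at 38.8 °C and between 9.56 and 9.87 (median 9.71) at 36.8 °C, and all 8 warm arrays were again below the cool median. Its difference was -0.17 ± 0.05 with an adjusted p of 0.063, so it did not pass. It passed with 1 probe set per symbol, with dim probe sets left out, and after quantile normalization. In these fits 1240 of 11528, 1545 of 15528 and 2256 of 20706 probe sets passed, against 1217 of 20706 before. Against the controls of each block the PDHA1 difference was -0.22 ± 0.10 (adjusted p = 0.26). OGDH differed by -0.11 ± 0.05 (adjusted p = 0.21) and SUCLA2 by 0.21 ± 0.08 (adjusted p = 0.12). SUCLA2 lay between 8.68 and 9.17 (median 9.01) at 38.8 °C and between 8.47 and 9.06 (median 8.70) at 36.8 °C.

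Set against the 37.8 °C controls, PDHB on day 13 was higher at 36.8 °C than in the controls, without passing the test. For 36.8 against 37.8 °C PDHB was higher by 0.17 ± 0.05, with 6 of 8 cool arrays above every control (unadjusted p = 0.0038, limma adjusted p = 0.15). Against the 4 controls of the same listing block the difference was 0.26 ± 0.06 (adjusted p = 0.028). In that fit 875 of 20706 probe sets passed, 798 of them higher, against 1 in the fit without the block. OGDH was higher by 0.13 ± 0.05 and DLD and PDHA1 by 0.12 ± 0.05 each, and for both OGDH and DLD all 8 cool arrays were above the control median. SUCLA2 differed by -0.17 ± 0.08. These 5 of 8 members had an unadjusted p under 0.05, as had 14.2% of all probe sets, and 0 of 8 passed after adjustment, beside 0.00483% of probe sets. For 38.8 against 37.8 °C 0 of 8 passed, also beside 0.00483%, and at an unadjusted p under 0.05 there were 0 members and 12.3% of probe sets. PDHB and PDHA1 then differed by -0.05 ± 0.05 each and DLD by 0.07 ± 0.05. Against the 4 controls of its own listing block, PDHB at 38.8 °C differed by -0.14 ± 0.06. The comparisons with 38.8 and with 36.8 °C share their 8 controls.

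Cartilage markers were high in some of the 38.8 °C arrays on day 13. All 11 were above 0 for 38.8 against 36.8 °C (median 0.87, 1 of 11 passing), with mean levels of 6.67 to 9.56 at 38.8 °C and 6.57 to 7.09 at 36.8 °C. At 38.8 °C 3 arrays, with means of 8.14, 8.997 and 9.56, stood above the highest control at 7.26. Without those 3 arrays the PDHB difference between 38.8 and 36.8 °C was -0.23, as large as with them, with an adjusted p of 0.068 over 5 and 8 arrays, and 260 probe sets passed in place of 1217. Among the related lists, 5 of 35 genes of the respiratory chain and ATP synthase fell and 0 rose (median -0.09). Over all probe sets 2.34% were lower and 3.54% higher for 38.8 against 36.8 °C. With the listing block as a term 28 probe sets passed in all, 1 higher and 27 lower. The genes of the related lists were not followed in that fit. COX6C, a subunit of cytochrome c oxidase, fell by 0.28 (adjusted p = 0.0097). GOT2 fell by 0.24 (adjusted p = 0.013), and PFKM, the muscle phosphofructokinase, was higher by 0.40 ± 0.09 (adjusted p = 0.012). Of 10 partners and regulators of pyruvate dehydrogenase and 10 other cycle enzymes, 0 passed in this comparison, and PDK4 differed by 0.50 ± 0.18 (adjusted p = 0.10).

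**Figure D3:**
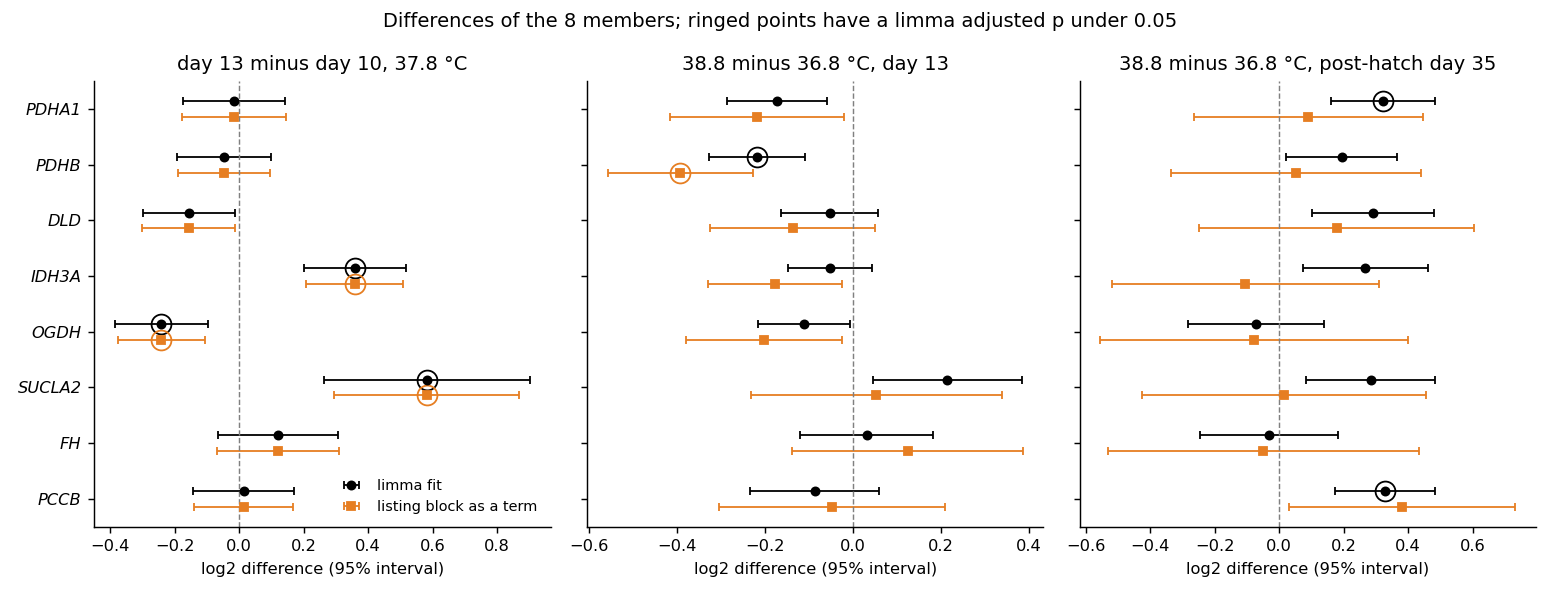
Log2 differences (x axis, with 95% intervals) of the 8 genes (y axis) in 3 comparisons, from limma without (black) and with (orange) the listing block as a term; ringed points have an adjusted p under 0.05. The rings of IDH3A, OGDH and SUCLA2 with age and of PDHB on day 13 appear in both fits. Those of PDHA1 and PCCB on day 35 appear in the fit without the block. For age, both fits give the same differences by construction, and only the intervals change.

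On post-hatch day 35 no member passed in any comparison of a treated group with the 37.8 °C controls. That was 0 of 8 in each of 4 comparisons, beside 0% of all probe sets in each. At an unadjusted p under 0.05 there were 0 members after 38.8 °C on days 7 to 10 (6.4% of all probe sets) and 0 after 38.8 °C on days 10 to 13 (3.14%). There was 1 member after 36.8 °C on days 7 to 10 (3.09%) and 3 after 36.8 °C on days 10 to 13 (6.37%). All 4 groups share the same 8 controls.

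After cool incubation PCCB had differences below 0 for both intervals, the largest of the members after days 7 to 10 and second to DLD after days 10 to 13. It lay between 9.45 and 9.87 (median 9.67) in the controls, between 8.92 and 9.47 (median 9.25) after 36.8 °C on days 7 to 10, and between 9.09 and 9.63 (median 9.25) after 36.8 °C on days 10 to 13. All 16 cool arrays were below the control median, and 6 of 8 and 7 of 8 were below every control. The log2 differences were -0.42 ± 0.11 (unadjusted p = 0.00045, adjusted p = 0.9998) and -0.38 ± 0.11 (unadjusted p = 0.0013, adjusted p = 0.67). Within the listing block they were -0.44 ± 0.13 and -0.40 ± 0.13. PCCA, the other subunit of the carboxylase, differed by -0.10 ± 0.11 and -0.18 ± 0.11.

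After 36.8 °C on days 10 to 13 all 8 members had differences below 0, with a median of -0.19, as had 10801 of the 20706 probe sets, whose median was -0.01. Against the 4 controls of its own listing block PDHA1 stood at 0.01. DLD lay between 9.61 and 10.30 (median 9.95) there and between 9.94 and 10.56 (median 10.32) in the controls, a difference of -0.41 ± 0.13 (adjusted p = 0.67; -0.35 ± 0.16 within the block). IDH3A lay between 10.14 and 10.67 (median 10.38) against 10.39 to 11.11 (median 10.78), a difference of -0.35 ± 0.13 (adjusted p = 0.69; -0.16 ± 0.16 within the block). For both, all 8 arrays were below the control median and 4 were below every control. SDHA, the flavoprotein subunit of succinate dehydrogenase, differed by -0.49 ± 0.13 (adjusted p = 0.66). After 36.8 °C on days 7 to 10 PDHA1 differed by -0.23 ± 0.11. After 38.8 °C on days 7 to 10 PDHA1 and SUCLA2 differed by 0.21 ± 0.11 and 0.22 ± 0.14, and after 38.8 °C on days 10 to 13 FH and OGDH differed by -0.28 ± 0.15 and -0.25 ± 0.15.

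Both warm groups together were set against both cool groups on day 35, 16 arrays on each side. PCCB lay between 9.10 and 9.96 (median 9.59) after 38.8 °C and between 8.92 and 9.63 (median 9.25) after 36.8 °C. The groups overlapped, but 14 of 16 warm arrays were above the cool median and 15 of 16 cool arrays below the warm median. The difference was 0.33 ± 0.08, or 1.26-fold (limma adjusted p = 0.018). PDHA1 lay between 8.21 and 8.88 (median 8.62) after 38.8 °C and between 7.76 and 8.71 (median 8.35) after 36.8 °C, with 15 of 16 warm arrays above the cool median. Its difference was 0.32 ± 0.08, or 1.25-fold (adjusted p = 0.026). Thus 2 of 8 members were called higher and 0 lower, beside 0.826% and 1.11% of all probe sets, or 1.94% in either direction. PCCB, PDHA1, DLD, SUCLA2, IDH3A and PDHB had an unadjusted p under 0.05 in limma, as had 18.5% of all probe sets. Quantile normalization moved the calls over all probe sets from 171 higher and 230 lower to 340 higher and 231 lower. The median difference of the members was 0.28, against -0.03 over all probe sets.

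The other members of that comparison did not pass. DLD differed by 0.29 ± 0.09 (adjusted p = 0.085), SUCLA2 by 0.28 ± 0.10 (0.12), IDH3A by 0.27 ± 0.10 (0.13) and PDHB by 0.19 ± 0.09 (0.21). FH and OGDH differed by -0.03 ± 0.11 and -0.07 ± 0.10. For DLD, all 16 cool arrays were below the warm median of 10.37. The call of PDHA1 was lost without the lowest array of 36.8 °C on days 10 to 13, at 8.04 (adjusted p = 0.052). DLD was called without animal 11 of 38.8 °C on days 7 to 10 (adjusted p = 0.038) or animal 39 of 38.8 °C on days 10 to 13 (0.0498). Animal 11 was the day 35 array least like the others (median r 0.901).

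All warm arrays lie in the first listing block and all cool arrays in the second, and only the 4 and 4 controls link them. With each side set against its own controls, PCCB still differed by 0.38 ± 0.17, while PDHA1 differed by 0.09 ± 0.18, SUCLA2 by 0.02 ± 0.22 and IDH3A by -0.10 ± 0.20. The adjusted p was 0.999 for each, and 0 probe sets in all passed, with 690 at an unadjusted p under 0.05. The controls of the first block exceeded those of the second by 0.37 ± 0.18 for IDH3A, 0.27 ± 0.19 for SUCLA2 and 0.23 ± 0.16 for PDHA1, and by -0.05 ± 0.16 for PCCB. The 4 controls of the second block all carry the label of days 10 to 13, and those of the first are 2 and 2, so block and interval are partly confounded among them. All 7 immune cell markers were below 0 for warm against cool, with a median of -0.41, but 0 passed. Their mean level ran from 7.44 to 9.07 after 38.8 °C and from 7.92 to 9.83 after 36.8 °C. All 4 slow and cardiac muscle markers were below 0 too (median -0.28, 0 passing). The part of these markers in the differences of PCCB and PDHA1 was not tested.

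**Figure D4:**
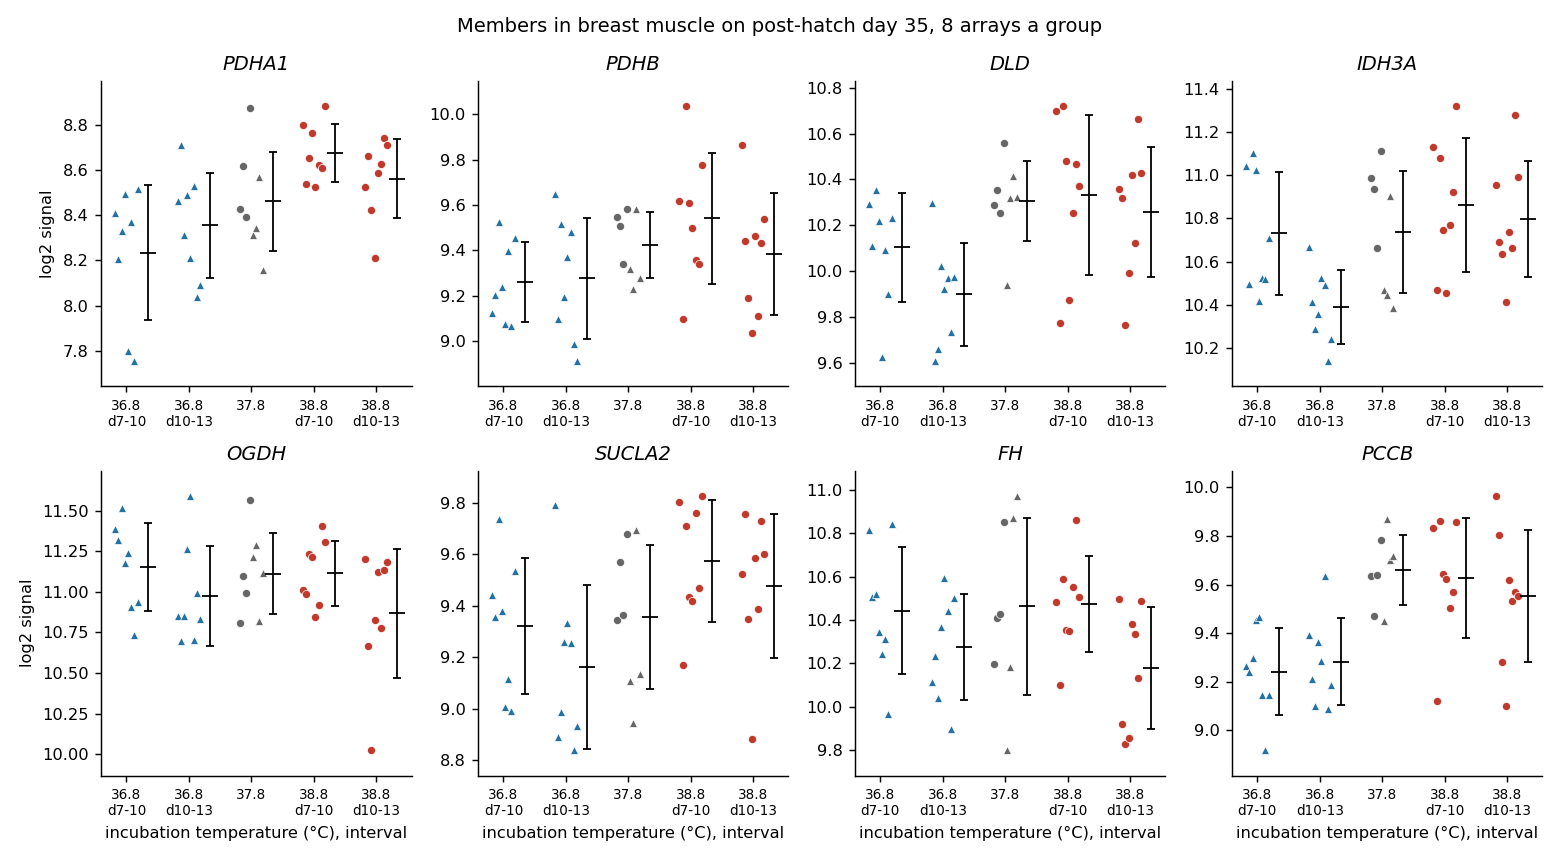
Log2 signal (y axis) of each gene in the 5 groups of post-hatch day 35 (x axis, incubation temperature in °C and interval); points are arrays, circles the first listing block and triangles the second, with the group mean and SD in black beside them. PCCB lies lowest in both 36.8 °C groups, where all 16 arrays are under the control median of 9.67.

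Neighbours in the pathway were also called in the warm against cool comparison, in which 0.826% of all probe sets were higher and 1.11% lower. Of 10 other citrate cycle enzymes 1 was higher and 0 lower (median 0.13): SDHA, by 0.33 ± 0.09 (adjusted p = 0.044). SUCLG1 differed by 0.31 ± 0.09 (adjusted p = 0.051) and PCCA by 0.13 ± 0.08 (adjusted p = 0.37). Of 35 genes of the respiratory chain and ATP synthase 4 were higher and 0 lower (median 0.21), among them ATP5O and ATP5J, of the ATP synthase, by 0.48 ± 0.08 (adjusted p = 0.00046) and 0.45 ± 0.09 (adjusted p = 0.0057). UQCRC2, a core subunit of complex III, was higher by 0.27 ± 0.07 (adjusted p = 0.038). Of the 10 partners and regulators of pyruvate dehydrogenase 0 passed, with PDK4 at -0.36 ± 0.25 and PDK1 at 0.23 ± 0.09. With the listing block as a term, none of these genes passed either.

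Most pairs of members were positively correlated between arrays of the same group. Pearson correlations were taken over the deviations of each array from its group mean, as a description, since arrays share their labelling and scaling. Over the 48 embryo arrays the 28 pairs had a median r of 0.34, with 25 above 0 and 3 below; the median r of a member with all genes ran from -0.0050 (PCCB) to 0.28 (PDHA1). The 3 pyruvate dehydrogenase subunits were close to each other, at 0.75 for PDHA1 with DLD, 0.71 for PDHA1 with PDHB and 0.65 for PDHB with DLD. OGDH was close to DLD (0.66) and PDHB (0.64). SUCLA2 ran with IDH3A (0.59) and opposite to OGDH (-0.40) and PCCB (-0.38). With deviations from the mean of group and listing block, these pairs stood at 0.52, -0.29 and -0.29.

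Over the 40 arrays of day 35 all 28 pairs were above 0, with a median r of 0.48 and a range of 0.17 to 0.78; the median r of a member with all genes ran there from -0.03 (OGDH) to 0.24 (PDHA1). There the highest pairs were IDH3A with SUCLA2 (0.78), DLD with IDH3A (0.73) and DLD with SUCLA2 (0.72), and the lowest was PDHA1 with OGDH (0.17). With deviations taken from the mean of group and listing block, the median r was 0.36 in the embryo and 0.50 on day 35. The difference between the ages was not tested.

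**Figure D5:**
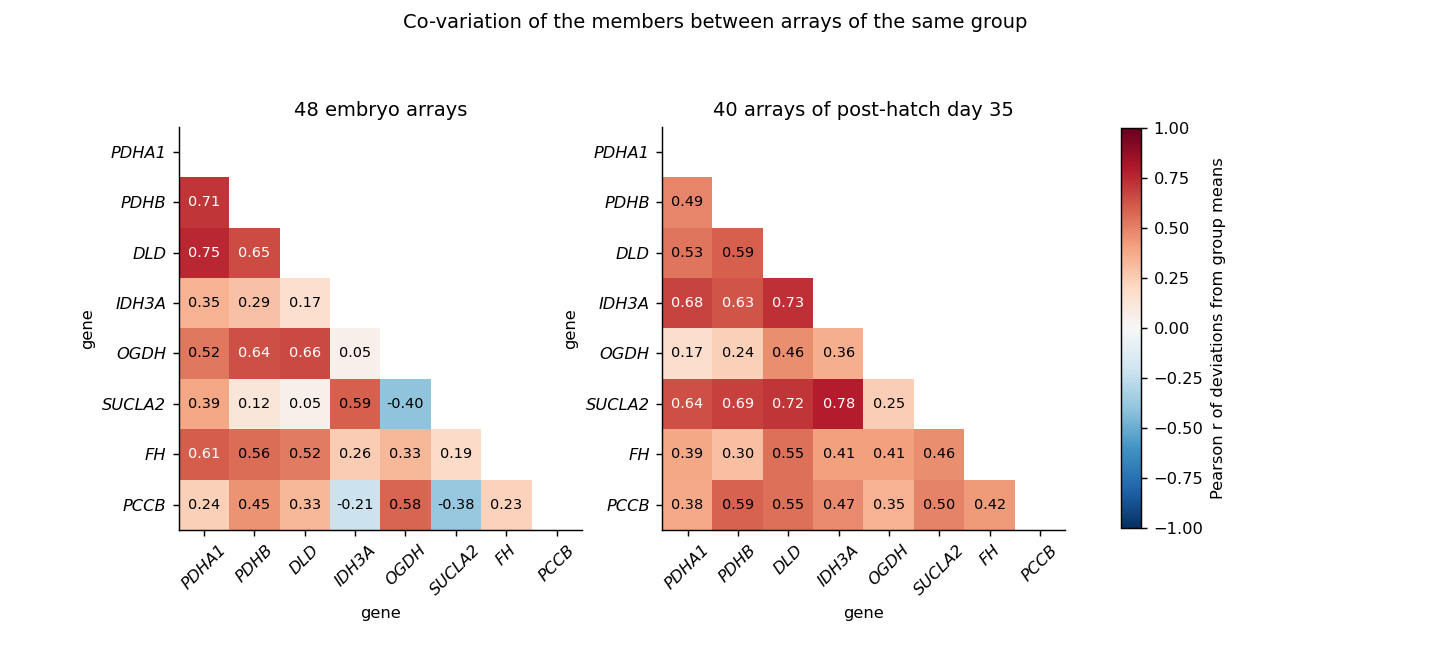
Pearson r between each pair of genes (both axes), over deviations from group means, for 48 embryo arrays and 40 arrays of day 35; red is above 0 and blue below, and each r is printed in its cell. OGDH and SUCLA2 stand at -0.40 in the embryo and 0.25 on day 35. With deviations from the mean of group and listing block (not drawn), that pair stands at -0.29 and 0.25.

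Among all 11527 other genes, the 2 whose deviations were most like each member's were never members, in the embryo or on day 35. Only deviations from group means were used here, so differences between the listing blocks of the controls remain in them. In the embryo SUCLA2 was most like RNPC3 and ARMC1 (r = 0.96 each), IDH3A most like WWTR1 (0.90), and OGDH most like HSD17B10 and TRAP1 (0.88 each). PDHA1 and DLD both had ABCG2 first (0.81 each), DLD had ATP5G1 second (0.80), and PDHB had DIS3L2 and POR (0.81 each). FH and PCCB reached 0.73 with GDPD1 and 0.70 with CFAP20. The median r with all genes was 0.23 for SUCLA2 and 0.0040 for OGDH.

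On day 35 OGDH was most like FURIN (0.91) and RNF123 (0.90), DLD like CHMP7 (0.85), IDH3A like EIF2S2 (0.84), and PDHA1 like TBP (0.82). SUCLA2 was most like RNF141 (0.82), PDHB like ATP5G1 (0.78), FH like HIF1AN (0.76), and PCCB like D2HGDH (0.73) and ADHFE1 (0.68). No gene was among the first 2 for the same member at both ages.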

How the data were processed

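Biotin-labelled cRNA from 88 individual muscle samples was hybridised to Affymetrix arrays, per the labels' protocols. The authors deposited log2 signals per probe set, and the series' value table holds the same values; GCOS 1.1.1 is named in the submitters' processing notes. How probe sets were summarised and normalized, and the annotation build, is not given in the sources used here. Of 20804 rows, 98 control rows were left out. Symbols are those of the array's annotation, brought up to date by Entrez ID with RefSeq: 12300 probe sets had 1 symbol, 256 several and 8150 none.

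Groups follow the labels. The tests used limma 3.58.1 (R 4.3.3), with lmFit and eBayes over 20706 probe sets: 48 embryo arrays for age, 24 each for temperature on day 10 and day 13, and 40 for day 35, after the script was tested on simulated data. The threshold was a Benjamini-Hochberg adjusted p of 0.05. Members, pathway lists and marker lists were chosen with earlier results of these data known. Named genes are all members, up to 3 rises and 3 falls per list and comparison, partner subunits, the kinases, and the 2 genes most like each member. The number of arrays limits the precision. Alternatives were quantile normalization, a trended and robust prior, the dimmest 0.25 of probe sets left out, 1 probe set per symbol, only the compared groups fitted, the listing block as a term, and arrays left out.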

Additional observations from a re-analysis of the deposited data

Results flagged for a closer look

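In 4 of 88 sets of 8 arrays, 1 array stood apart from the rest of its group, and chance alone flags about 1 in 20 groups. SUCLA2 was 7.34 in a 37.8 °C control of day 10 (animal 63, second listing block), with the next at 8.15. Without it the SUCLA2 age difference at 37.8 °C was 0.44 (limma adjusted p = 0.017). SUCLA2 was also low, at 8.88, in animal 43 of day 35 after 38.8 °C on days 10 to 13, with the next at 9.35. OGDH was 10.02 in animal 39 of that group, with the next at 10.66, and without it the difference of OGDH from the controls was -0.12 in place of -0.25. DLD was 10.75 in animal 73 of day 13 after 36.8 °C, with the next at 10.56.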

How the results depend on the processing

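With day 10 and day 13 controls of the first listing block alone, 1 of 8 members passed for age at 37.8 °C in place of 3; both single-block fits, and the fit without arrays high in cartilage markers, were chosen after seeing the data. PDHB then differed by 0.045, PCCB by -0.057 in the second block, and PDHA1 by 0.0099 after quantile normalization, each opposite in sign to its value near 0. That normalization raised the members called for age at 38.8 °C from 2 to 4 of 8, with 4714 and 4848 calls over all probe sets. With the block as a term, SUCLA2 turned to -0.047 and 0.12 for 38.8 and 36.8 against 37.8 °C on day 10, to -0.16 for 38.8 against 36.8 °C, and to 0.0065 for its age difference at 38.8 against 37.8 °C, while IDH3A turned to -0.10 for warm against cool on day 35. The block also made it 1 member called in place of 0 for 36.8 against 37.8 °C on day 13, and 0 in place of 2 on day 35. For 38.8 against 36.8 °C on day 13, 2 members passed in place of 1 under quantile normalization, without dim probe sets and with 1 probe set per symbol. In these settings 2256 of 20706, 1545 of 15528 and 1240 of 11528 probe sets passed. Without the cartilage-high arrays 0 members passed, and fewer arrays were tested. The cause of the other changes was not tested. Leaving out 1 array gave 1 to 2 members there and 1 to 3 for day 35 warm against cool, and age differences at 37.8 °C of -0.055 to 0.013 for PDHA1 and -0.016 to 0.037 for PCCB. Over the refits that keep all arrays but those named, the count of members called was within 1.5 times its value in 108, higher in 5 and lower in 3. The 108 include counts that stayed at 0, and most comparisons had 0 members called at the start. The tally thus says little about the comparisons with calls. Over all probe sets, calls for 38.8 against 36.8 °C on day 13 went from 1217 to 2256 (quantile) or 28 (block), on day 10 from 7 to 330 or 0, for 36.8 against 37.8 °C on day 13 from 1 to 22 or 875, for age at 37.8 °C from 5552 to 2791 (first block alone), and for day 35 warm against cool from 401 to 0 (block). No paired analysis was possible because the labels' numbers are animal numbers that the compared groups do not share. A second probe set was not run, since each member has 1.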

Other observations

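Other fuel genes changed with age at 37.8 °C around the members. Of 15 fatty acid oxidation genes 5 rose and 0 fell (median 0.18), among them ACAA2 by 0.50 ± 0.19, ETFDH by 0.38 ± 0.09 and ETFA by 0.35 ± 0.08. ETFA and ETFDH pass electrons from that route to ubiquinone. The same list had 4 rises and 0 falls at 36.8 °C (median 0.23), but 0 rises and 4 falls at 38.8 °C (median -0.03), where CPT1A, which admits fatty acids to the mitochondrion, fell by 0.56 and HADHB, of the trifunctional protein, fell by 0.34. The difference in the age step between 38.8 and 37.8 °C passed for 0 of the 15 genes, with 3 at an unadjusted p under 0.05. Of 10 mitochondrial regulators 4 rose and 1 fell (median 0.25): the coactivator PPARGC1A rose by 1.23 ± 0.15, PPARA by 0.96 ± 0.28 and ESRRB by 0.44 ± 0.10, and NRF1 fell by 0.22; at 38.8 °C 2 rose and 1 fell, and at 36.8 °C 3 rose and 0 fell. Of 12 glycolysis genes 2 rose and 3 fell (median -0.03), with PFKM higher by 1.08 ± 0.16 and PFKP lower, a fall of 0.31 on the log2 scale; 1 rose and 3 fell at 38.8 °C, and 4 rose and 2 fell at 36.8 °C. Of 35 genes of the respiratory chain and ATP synthase 1 rose and 2 fell (median -0.03); 0 rose and 3 fell at 38.8 °C, and 3 rose and 1 fell at 36.8 °C. Over all probe sets 9.65% rose and 17.2% fell at 37.8 °C, 8.4% and 14.4% at 38.8 °C, and 14.4% and 12.1% at 36.8 °C (limma, adjusted p under 0.05). The age differences of these fuel genes and regulators were not followed in the alternative fits.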
